A study of Mus musculus with 12 samples.

Results

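Garlic treatment was compared with no treatment in the hypothalamus of diabetic mice, using the 2 libraries of the garlic group and the 4 libraries of the diabetes group, 6 of the 12 libraries of the series. Every gene of the raw count table entered the comparison, and 25562 of its 78334 gene IDs had enough counts to be tested. All mice were male C57BL/6. Mice of both groups had been injected with streptozotocin into the peritoneum 1 time, at 70 mg/kg, on postnatal day 2 and, from 3 weeks of age, a diet with 60% of its energy from fat for 8 weeks. The garlic group was then given aged garlic extract by oral gavage, 200 mg/kg daily for 28 days, and the diabetes group was given the vehicle alone. The streptozotocin and the diet are therefore shared, and the extract is the labelled difference. The protocol starts the gavage in week 7 of the diet and the design text starts it after 11 weeks, so its timing relative to the diet is not settled. The control group (3 libraries, vehicle and standard diet) is used as a reference level. The curcumin group (3 libraries, 50 mg/kg in the same model) is not tested against another group. It enters the shared gene filter, scaling, covariates, centring of scores and estimate of spread. Whether every library is a different mouse is not stated in the labels. The p-values therefore reflect only how far these libraries spread, and that spread may be technical.

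The hypothalamus sets appetite, energy use, water balance and the output of the pituitary. In its arcuate nucleus, neurons that make proopiomelanocortin and CART restrain feeding, whereas neurons that make AgRP and neuropeptide Y drive it, and both respond to insulin and leptin. Streptozotocin destroys insulin-producing beta cells, and together with a fatty diet it is used to model diabetes with insulin shortage and insulin resistance. Aged garlic extract is rich in water-soluble sulfur compounds such as S-allylcysteine and is known for antioxidant activity, often discussed through the transcription factor NRF2, and as a donor of sulfur to hydrogen sulfide metabolism.

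Library totals were 12950017 to 30271706 counts in diabetes and 21952253 and 18332013 counts in garlic replicates 1 and 2. The tissue label was checked with 30 markers of hypothalamus. Their summed level was 1455, 1600.5, 1454 and 1335 CPM (read counts scaled to library size) in diabetes replicates 1 to 4 and 1411 and 1521 CPM in garlic, and at most 1 of the 30 was at 0 in any of these libraries. The libraries differed in complexity. At the lowest depth of the series, 20133 to 22515 genes were expected in the diabetes libraries, 33125 and 34719 in the garlic libraries and 25766 to 33157 in control. Pseudogenes took 5.80 to 7.23% of the counts in diabetes, 4.16 and 5.67% in garlic and 4.51 to 5.33% in control. Diabetes replicate 4 stood apart in markers of blood and pituitary, garlic replicate 1 in markers of striatum, and curcumin replicate 2 in markers of hypothalamus, whose summed level was 415 CPM there against 1335 CPM or more in every other library. Leaving out curcumin replicate 2, an alternative added after the data were seen, changes how many genes pass the test, and the genes described below that pass without it are named as such.

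**Figure D1:**
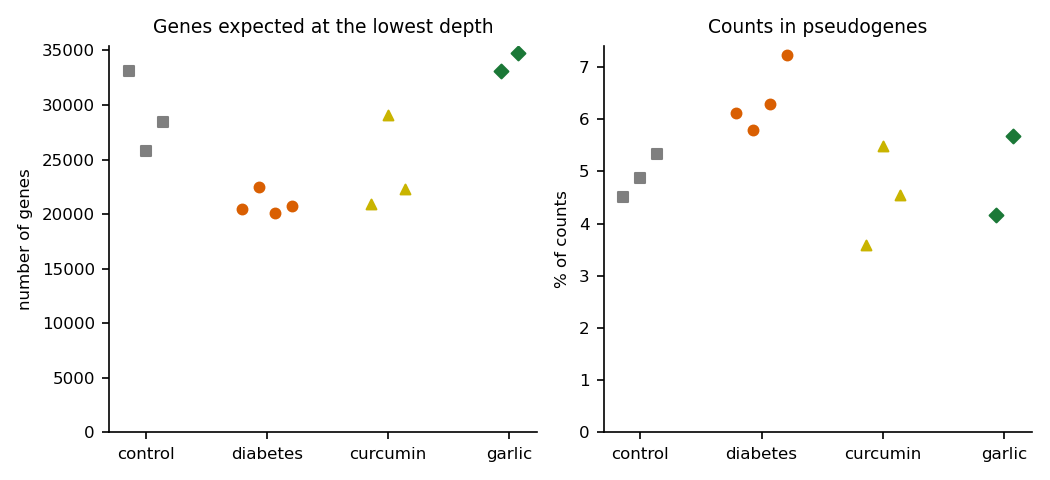
Number of genes expected at the lowest library depth (left), and share of counts in pseudogenes, in percent (right), for each library by group; each point is 1 library and both axes start at 0. The 2 garlic libraries lie above all 4 diabetes libraries in the number of genes, at 33125 and 34719 against 20133 to 22515, and below them in the share of pseudogenes.

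No gene passed the test for garlic against diabetes. With edgeR's quasi-likelihood test and Benjamini-Hochberg adjustment over 25562 genes, 0 genes (0%) had an adjusted p under 0.05, and the smallest adjusted p was 0.0892. Before adjustment, 1765 genes (6.9%) were higher in garlic and 1031 (4.03%) lower at p under 0.05. In 3385 genes (13.2%) both garlic libraries lay above all 4 diabetes libraries, and in 1921 (7.52%) both lay below them. Of 14058 protein-coding genes of at least 1 CPM, 5.72% were higher and 5.83% lower at an unadjusted p under 0.05. In 12.6% of these both garlic libraries lay above all diabetes libraries, and in 11.0% below. The list counts given below are to be read against these shares. The median log2 change over all genes tested was 0.07. The smallest adjusted p among pseudogenes was the same, 0.0892. Other tools gave other numbers at the same threshold: DESeq2 called 432 genes (34 higher, 398 lower) and limma-voom with library weights 429 (70 higher, 359 lower). Pseudogenes were 102 and 97 of these. Without curcumin replicate 2 edgeR called 71 (14 higher, 57 lower), 21 of them pseudogenes. With diabetes replicate 4 left out as well, edgeR called 1 gene. The genes below are therefore described by their levels, and none of them is reported as changed.

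Levels are given as CPM in replicate order, and changes are log2 fold changes of garlic minus diabetes with their standard error. Genes under 1 CPM, pseudogenes and genes with only a model name were left out of the ranking by p in either direction. The 10 remaining genes of smallest p among those lower in garlic included 2 that act in mitochondrial respiration. Ndufs8, an iron-sulfur subunit of respiratory complex I, stood at 176, 157, 259 and 256 CPM in diabetes and 59.1 and 72.4 CPM in garlic (log2 change -1.69 ± 0.34, adjusted p = 0.115). Atp5j2, a small membrane subunit of ATP synthase, stood at 349.6, 275, 353 and 463 CPM in diabetes and 107 and 158 CPM in garlic (log2 change -1.44 ± 0.29, adjusted p = 0.12). In both genes every garlic library lay below every diabetes library. Endog, the mitochondrial endonuclease G, had the largest change of the 10 in size, from 53.8, 33.6, 86.2 and 68.2 CPM to 14.1 and 10.2 CPM (log2 change -2.31 ± 0.47, adjusted p = 0.115). Bola2, which works with a glutaredoxin in handling iron-sulfur clusters, stood at 103, 103, 134 and 119 CPM in diabetes and 25.7 and 41.0 CPM in garlic (log2 change -1.78 ± 0.32, adjusted p = 0.115). The smallest p of the 10 belonged to S100a1, a calcium-binding protein of the EF-hand family. Its level was 152, 109.6, 167 and 189 CPM in diabetes and 32.9 and 46.3 CPM in garlic (log2 change -1.96 ± 0.33, adjusted p = 0.0892). Ly6h, a membrane protein that modulates nicotinic acetylcholine receptors, was at 1144, 866, 2203 and 1245 CPM in diabetes and 355 and 484 CPM in garlic (log2 change -1.70 ± 0.34, adjusted p = 0.115). Rps2, which belongs to the small subunit of the ribosome, was at 185, 162, 231 and 168 CPM and 52.9 and 91.4 CPM (log2 change -1.37 ± 0.27, adjusted p = 0.115). The other 3 were Grcc10 (-2.03 ± 0.38), Rex1bd (-1.64 ± 0.33) and Tm2d3 (-1.23 ± 0.24), again with no overlap between the groups. The 10 genes were 2.35-fold to 4.98-fold lower in garlic. All 10 passed in DESeq2, in limma-voom and in edgeR without curcumin replicate 2, where their largest adjusted p was 0.0476. In edgeR none passed with RLE scaling, a stricter filter, the number of detected genes as a covariate or only the groups compared. None passed with any 1 diabetes library left out, or with curcumin replicate 2 and diabetes replicate 4 both left out.

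Among the 10 genes of smallest p that were higher in garlic, 2 were synaptic adhesion genes. Ptprd, a receptor tyrosine phosphatase that organizes synapses, stood at 98.2, 78.0, 75.6 and 97.3 CPM in diabetes and 213 and 151 CPM in garlic (log2 change 1.06 ± 0.23, adjusted p = 0.149). Nrxn3, a presynaptic adhesion protein of the neurexin family, stood at 85.3, 112, 100.2 and 109.6 CPM in diabetes and 222 and 192 CPM in garlic (log2 change 1.03 ± 0.25, adjusted p = 0.187). The groups did not overlap in either gene, and the diabetes libraries lay close together. Dmxl1, which serves the assembly of the vacuolar proton pump, was at 30.1, 28.3, 41.6 and 17.4 CPM in diabetes and 80.2 and 56.7 CPM in garlic (log2 change 1.22 ± 0.30, adjusted p = 0.187). Eea1, a tether of early endosomes, was at 24.9, 20.0, 22.3 and 20.1 CPM in diabetes and 62.0 and 37.6 CPM in garlic (log2 change 1.19 ± 0.29, adjusted p = 0.19). St8sia1, the enzyme that makes ganglioside GD3, was at 29.7, 33.6, 24.3 and 21.5 CPM in diabetes and 69.0 and 49.8 CPM in garlic (log2 change 1.12 ± 0.28, adjusted p = 0.197). Garlic replicate 1 was the higher garlic library in each of these genes. St18, a zinc-finger transcription factor, stood at 2.79, 4.11, 3.74 and 3.05 CPM in diabetes and 17.6 and 8.79 CPM in garlic (log2 change 1.95 ± 0.48, adjusted p = 0.197), the largest change of the 10. The RNA-binding genes Pnisr (1.11 ± 0.24), a nuclear protein of the splicing machinery, and Tia1 (1.10 ± 0.26), a protein of stress granules, together with Slc35f1 (1.04 ± 0.25) and Ttc14 (1.06 ± 0.26), completed the group. The changes were 2.04-fold to 3.86-fold, 9 of the 10 passed in DESeq2, which gave St18 no adjusted p, and 7 passed in edgeR without curcumin replicate 2, where Slc35f1, Ttc14 and St18 did not. None passed in the edgeR alternatives in which none of the 10 lower genes passed.

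The same 20 genes were set beside control from the same fit, which shares the garlic libraries. For the 10 lower genes the log2 change of garlic minus control ran from -0.71 to 0.16, and for the 10 higher genes from 0.15 to 0.55. S100a1 stood at 47.8, 51.2 and 32.0 CPM in control, beside 32.9 and 46.3 CPM in garlic, and Nrxn3 at 180.0, 146 and 171 CPM beside 222 and 192 CPM. Over all genes, 0 genes (0%) passed for garlic against control in edgeR and also in DESeq2 and limma-voom, and at an unadjusted p under 0.05 only 20 (0.0782%) were higher and 8 (0.0313%) lower. These counts do not show that garlic and control are alike: the common dispersion was 0.653, a coefficient of variation of 0.808 between libraries.

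**Figure D2:**
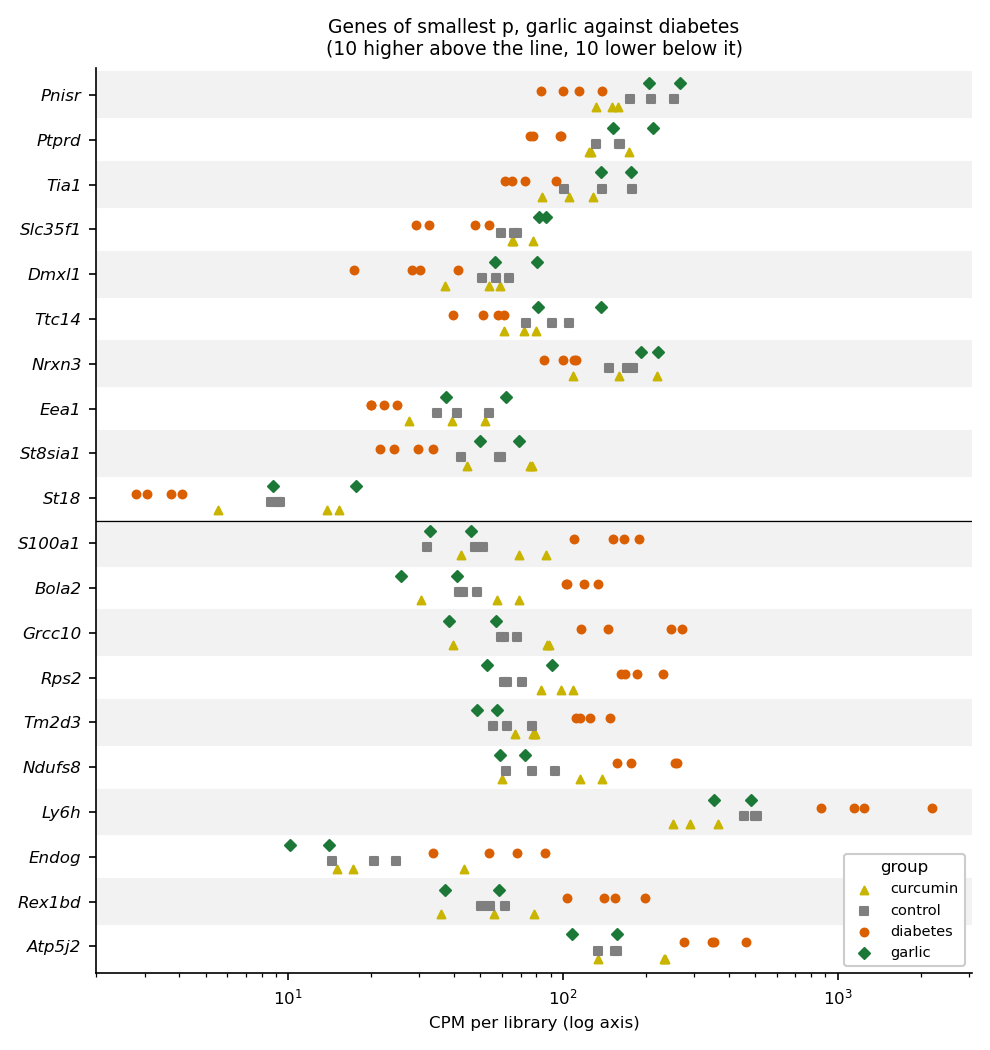
CPM on a log axis in each library for the 10 genes of smallest p that were higher in garlic (above the line) and the 10 that were lower (below it); each point is 1 library, coloured and shaped by group. The garlic diamonds do not overlap the diabetes circles in any of the 20 genes, with log2 changes from -2.31 to 1.95.

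The nuclear genes of the mitochondrial respiratory chain gave the lowest medians of the 34 functional lists. The nuclear genome encodes most subunits of the respiratory chain, whereas the mitochondrial genome encodes a small core of them. Of 37 nuclear subunits of complex I, the entry point of electrons from NADH, 20 were lower and 0 higher at an unadjusted p under 0.05. The share lower was 4.03% of all genes and 5.83% of protein-coding genes of at least 1 CPM. In 26 both garlic libraries lay below all diabetes libraries, against 7.52% and 11.0%. The median log2 change was -0.95 against 0.07 over all genes. None passed after adjustment (smallest adjusted p = 0.115). The summed level of the group was 5244, 4271, 6977 and 6518 CPM in diabetes and 2431 and 3358 CPM in garlic, beside 3059, 3085 and 3246 CPM in control. Both garlic libraries were below all 4 diabetes libraries, and garlic replicate 1 was the lower. DESeq2 called 12 of the 37 lower and edgeR without curcumin replicate 2 called 5.

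The nuclear subunits of complexes II to V, which carry electrons to oxygen and make ATP, gave a similar picture. Of 38 tested, 18 were lower and 0 higher at an unadjusted p under 0.05, against 4.03% and 6.9% of all genes, with a median of -0.85, and 0 passed after adjustment. Cox4i1, a subunit of cytochrome c oxidase, stood at 1325, 770.5, 2016 and 1486 CPM in diabetes and 394 and 606 CPM in garlic (log2 change -1.48 ± 0.39, adjusted p = 0.218). Ndufa4, which associates with the same oxidase, was at 308, 235, 378 and 353 CPM in diabetes and 114 and 188 CPM in garlic (log2 change -1.08 ± 0.41, adjusted p = 0.388). The groups were apart in both genes. In Atp5a1, the alpha subunit of ATP synthase, they overlapped, at 1084, 729.8, 1225 and 1024 CPM in diabetes and 802 and 586 CPM in garlic (log2 change -0.55 ± 0.31, adjusted p = 0.578). DESeq2 called 12 of these 38 genes lower and edgeR without curcumin replicate 2 called 3.

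Medians for mitochondrial protein synthesis and import were also below 0. Of 44 proteins of the mitochondrial ribosome, which translates the mitochondrial genome, 26 were lower and 0 higher at an unadjusted p under 0.05. Over all genes these shares were 4.03% and 6.9%, and the list median was -0.78. Mrpl54 of the large mitochondrial subunit stood at 64.2, 50.1, 135 and 77.6 CPM in diabetes and 20.5 and 31.2 CPM in garlic (log2 change -1.66 ± 0.42, adjusted p = 0.205), and was chosen after its values were seen. Mrpl12, which the naming rule took for its level, stood at 120.1, 92.1, 169 and 163 CPM in diabetes and 48.9 and 78.5 CPM in garlic (log2 change -1.10 ± 0.40, adjusted p = 0.37). Neither gene overlapped between the groups, whereas Mrps26 did, at 91.5, 68.7, 172 and 119 CPM and 44.4 and 70.2 CPM. Of 16 import chaperones and translocase subunits, 5 were lower, with a median of -0.59, which was -0.34 without garlic replicate 1 and -1.01 without garlic replicate 2. Timm8b, a chaperone of the space between the mitochondrial membranes, was at 134, 119, 140.3 and 182 CPM in diabetes and 44.8 and 71.1 CPM in garlic (log2 change -1.31 ± 0.28, adjusted p = 0.145), and passed without curcumin replicate 2 (adjusted p = 0.0496). DESeq2 called 7 of the ribosomal and 3 of the import genes lower.

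The median of the genes encoded in mitochondria lay on the other side. Of 15 such genes, 2 were higher and 0 lower at an unadjusted p under 0.05, against 6.9% and 4.03% of all genes. The median was 0.36, but 0.02 without garlic replicate 2 and -0.70 with the number of detected genes as a covariate. The summed level was 52361, 58642, 43302 and 55179 CPM in diabetes and 48693 and 73319 CPM in garlic. Garlic replicate 2 alone was above the diabetes range, and replicate 1 was inside it. mt-Nd4, a complex I subunit made in the mitochondrion and chosen after its values were seen, stood at 3016, 4244, 2146 and 3481 CPM in diabetes and 4538 and 6716 CPM in garlic (log2 change 0.80 ± 0.32, adjusted p = 0.395). That difference was turned by the same covariate, to -0.17. The garlic and diabetes libraries do not overlap in this covariate, and its slope comes from all 12 libraries. Values with it are therefore uncertain, here and below.

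**Figure D3:**
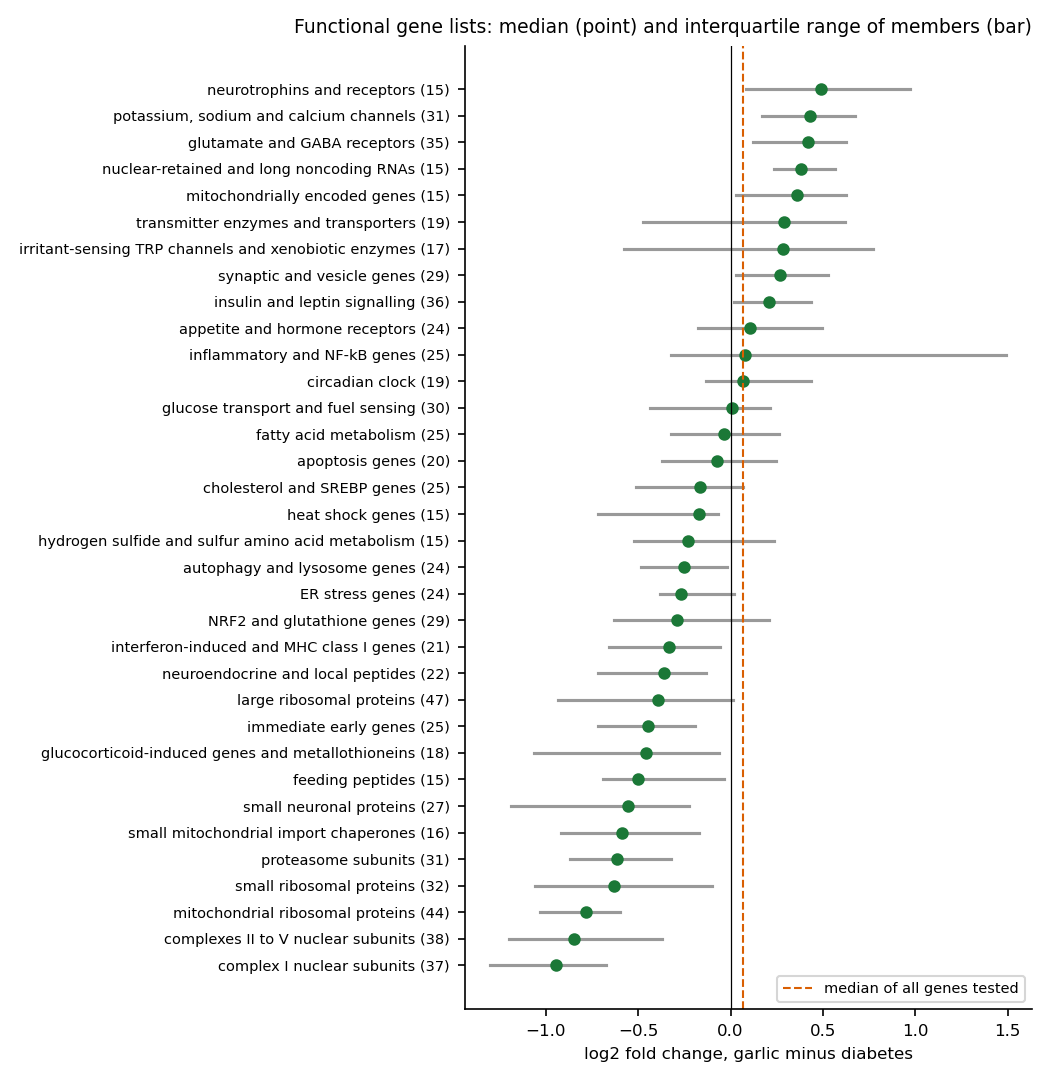
Median log2 fold change of garlic minus diabetes (points) and the interquartile range of the members (bars) for 34 functional gene lists, with the number of members tested in parentheses; the dashed line is the median of all genes tested, 0.07. Nuclear subunits of the respiratory chain lie lowest, at -0.95 and -0.85, and neurotrophins, ion channels and transmitter receptors highest, at 0.42 to 0.49.

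Cytosolic ribosomes and the proteasome, the cell's protein synthesis and disposal machines, had medians below 0. Of 32 proteins of the small subunit, 12 were lower and 0 higher at an unadjusted p under 0.05 (median -0.63), against 4.03% and 6.9% of all genes. Of 47 proteins of the large subunit, 12 were lower and 0 higher (median -0.39). Garlic replicate 2 was closer to diabetes than replicate 1. The small-subunit median was -0.36 without garlic replicate 1 and -1.05 without garlic replicate 2, and the large-subunit median was -0.10 without garlic replicate 1 and -0.83 without garlic replicate 2. Rps3, part of the entry channel for mRNA, stood at 878, 561, 1246 and 846 CPM in diabetes and 294 and 465 CPM in garlic (log2 change -1.22 ± 0.32, adjusted p = 0.217). Rplp1, an acidic stalk protein chosen after its values were seen, stood at 545, 429, 719 and 895 CPM in diabetes and 134 and 275 CPM in garlic (log2 change -1.66 ± 0.41, adjusted p = 0.187). Its change was -1.25 without garlic replicate 1 and -2.27 without garlic replicate 2. The groups did not overlap in either gene. Rps15 (-1.54 ± 0.42) and Rpl8 (-1.07 ± 0.30) were apart in the same direction, and Rpl4 was at 630.2, 612, 743 and 823 CPM and 421 and 583 CPM (log2 change -0.48 ± 0.24, adjusted p = 0.498). Ribosomal protein genes have many processed pseudogenes, whose reads the authors' counting could split from those of the parent gene, so these values are uncertain. Of 31 proteasome subunits, 15 were lower and 0 higher (median -0.61). Psma7, a subunit of the core ring chosen after its values were seen, was at 162, 151, 227 and 214 CPM in diabetes and 74.1 and 84.1 CPM in garlic (log2 change -1.25 ± 0.29, adjusted p = 0.176), and passed without curcumin replicate 2 (adjusted p = 0.0476). Psmb4 (-1.09 ± 0.34) and the ATPase Psmc5 (-0.55 ± 0.28) lay below the diabetes range too. DESeq2 called 8 small-subunit, 9 large-subunit and 12 proteasome genes lower.

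Small abundant neuronal proteins also had a median below 0. Of 27 tested, 10 were lower and 0 higher at an unadjusted p under 0.05, against 4.03% and 6.9% of all genes. The list median was -0.55, or -0.26 without garlic replicate 1 and -0.95 without garlic replicate 2. Uchl1, a ubiquitin hydrolase of neurons, stood at 2038, 1391, 2506 and 1729.6 CPM in diabetes and 750.1 and 1052 CPM in garlic (log2 change -1.09 ± 0.30, adjusted p = 0.22). Stmn3, a stathmin that binds tubulin, stood at 1303, 987, 2025 and 1491 CPM in diabetes and 496 and 715 CPM in garlic (log2 change -1.26 ± 0.40, adjusted p = 0.303). Both genes had the garlic libraries below the diabetes range. Of 24 appetite and hormone receptors, 2 were higher and 1 lower, with a median of 0.11, close to that of all genes. The lower one, Ramp1, a partner of the CGRP receptor, was at 151, 115, 216 and 186 CPM in diabetes and 50.7 and 67.2 CPM in garlic (log2 change -1.50 ± 0.35, adjusted p = 0.18). Ldha, which turns pyruvate into lactate and was chosen after its values were seen, was at 184, 160.0, 295 and 247 CPM in diabetes and 108 and 95.7 CPM in garlic (log2 change -1.12 ± 0.27, adjusted p = 0.18). Over 30 genes of glucose transport and fuel sensing, 0 were higher and 2 lower, with a median of 0.01, or -0.14 without garlic replicate 1.

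Transcript length differed between the gene groups described above and the neuronal receptors and channels described further on. The median annotated transcript length was 686 nt for complex I, 758 nt for the mitochondrial ribosome, 634 nt for the small ribosomal subunit and 850.0 nt for the proteasome. It was 2830.0 nt for glutamate and GABA receptors and 3156 nt for ion channels. Over protein-coding genes of at least 1 CPM, split by length into 5 classes of about equal size, the median log2 change was -0.11 in the shortest class and 0.31 in the longest. Of the genes in the shortest class, 12.0% were lower and 3.27% higher at an unadjusted p under 0.05, and in the longest 0.498% were lower and 10.8% higher. Against control the class medians lay between -0.03 and 0.01. With the log2 values corrected for transcript length, the median of all genes tested was -0.13 and that of complex I was -1.02, of complexes II to V -0.87, of the mitochondrial ribosome -0.80 and of the proteasome -0.78. For the receptors it was 0.11 and for the channels -0.02. With the number of detected genes as a covariate, the medians were -2.17 for complex I, -2.12 for complexes II to V, -1.49 for the mitochondrial ribosome and -1.22 for the proteasome, and -0.13 for all genes. With the length correction edgeR called 120 genes, 2 higher and 118 lower, 6 of them subunits of complex I.

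**Figure D4:**
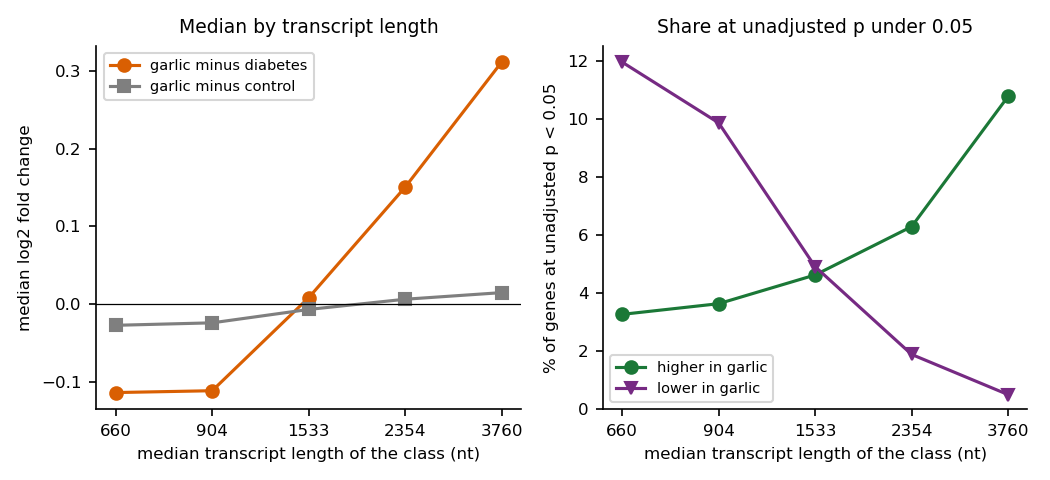
Left, median log2 fold change by transcript-length class for protein-coding genes of at least 1 CPM, for garlic minus diabetes and garlic minus control, which share the garlic libraries. Right, the percentage of genes in each class at an unadjusted p under 0.05 in garlic against diabetes, by direction. The diabetes contrast climbs from -0.11 to 0.31 from the shortest to the longest class, whereas the control contrast stays between -0.03 and 0.01.

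Immediate early genes, which neurons switch on within minutes of stimulation, had a median below 0. Of 25 tested, 4 were lower and 0 higher at an unadjusted p under 0.05, against 4.03% and 6.9% of all genes. In 6 the garlic libraries lay below all diabetes libraries, against 7.52% of all genes. Among protein-coding genes of at least 1 CPM, 5.83% were lower, 5.72% higher and 11.0% wholly below. The list median was -0.45, or -0.83 after the length correction. Junb, which forms AP-1 with Fos proteins, stood at 74.9, 109, 67.6 and 100.1 CPM in diabetes, 32.0 and 32.2 CPM in garlic and 20.8, 24.4 and 21.2 CPM in control (log2 change -1.45 ± 0.34, adjusted p = 0.18 against diabetes). Fos, its best known partner and a marker of neuronal activation, stood at 53.7, 97.0, 53.5 and 84.4 CPM in diabetes, 31.9 and 36.7 CPM in garlic and 15.2, 25.9 and 28.8 CPM in control (log2 change -1.07 ± 0.40, adjusted p = 0.388). In both genes the garlic libraries lay below all diabetes libraries and above all control libraries. Egr1, a zinc-finger factor of the same class, showed this order as well, at 113, 123, 96.7 and 88.5 CPM in diabetes, 80.9 and 73.7 CPM in garlic and 51.5, 55.9 and 64.2 CPM in control (log2 change -0.45 ± 0.27, adjusted p = 0.634). Jund did not, at 163, 144, 298 and 189.9 CPM in diabetes, 81.6 and 94.2 CPM in garlic and 109, 87.3 and 124 CPM in control (log2 change -1.18 ± 0.45, adjusted p = 0.388). DESeq2 called 2 of the 25 lower, Junb among them (adjusted p = 0.00192).

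Metallothioneins bind zinc and copper and respond to glucocorticoids and metal load. They were listed together with glucocorticoid-induced genes. In this mixed list of 18 genes, 4 were lower and 0 higher at an unadjusted p under 0.05, against 4.03% and 6.9% of all genes. The list median was -0.46. It was -0.19 without garlic replicate 2 and -0.80 without replicate 1. Mt1 stood at 431, 504, 546 and 589 CPM in diabetes and 184 and 222 CPM in garlic (log2 change -1.35 ± 0.31, adjusted p = 0.18). Mt3, the brain form, stood at 580.1, 498, 922 and 862 CPM in diabetes and 218 and 413 CPM in garlic (log2 change -1.18 ± 0.34, adjusted p = 0.242). The garlic libraries lay below every diabetes library in both genes, and DESeq2 called both, with adjusted p = 0.000406 for Mt1 and 0.00595 for Mt3.

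**Figure D5:**
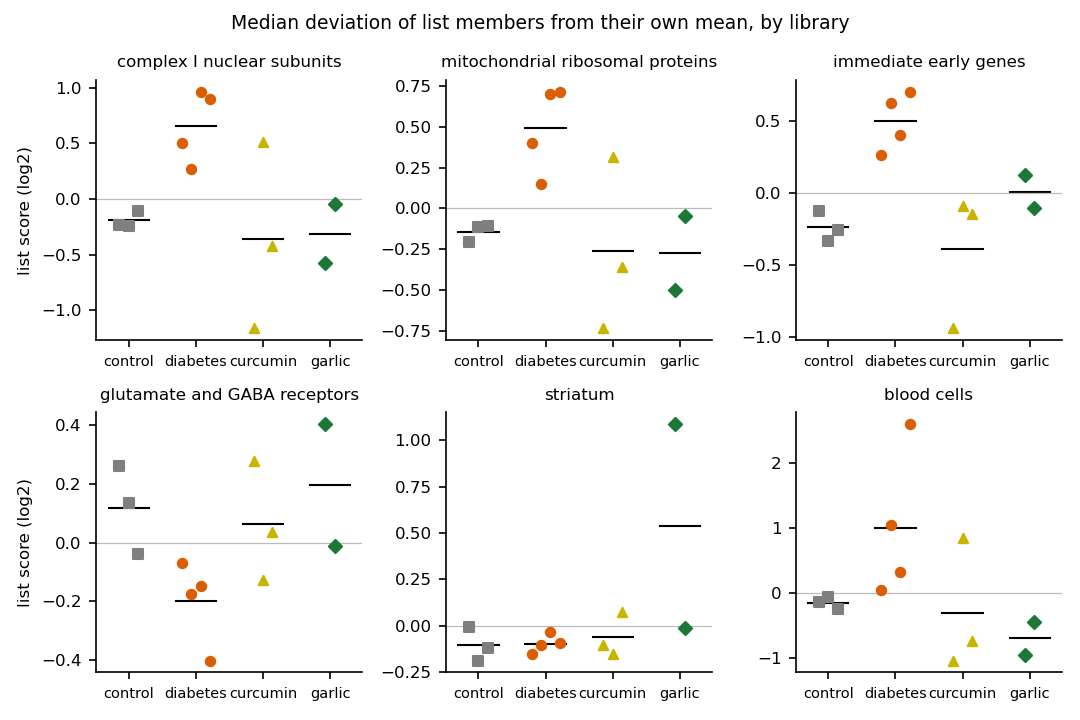
List scores by library for 4 functional gene lists and 2 marker lists, where each member's log2 CPM is centred on its mean over the 12 libraries and a score is the members' median; points are libraries and bars are group means. Garlic lies below diabetes for complex I, the mitochondrial ribosome, immediate early genes and blood cells; the 1 high striatal score, 1.09, is garlic replicate 1.

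Peptides that restrain and that drive feeding were compared next. Of 15 feeding peptides, 2 were lower and 1 higher at an unadjusted p under 0.05, against 4.03% and 6.9% of all genes. The median was -0.50, or 1.23 with the number of detected genes as a covariate. Pomc, the precursor of the appetite-suppressing melanocortins, stood at 171, 238, 343 and 1089 CPM in diabetes, 8.95 and 104 CPM in garlic and 50.3, 60.3 and 68.7 CPM in control (log2 change -3.02 ± 0.99, adjusted p = 0.32 against diabetes). Cartpt, the precursor of CART, stood at 295, 322, 516 and 434 CPM in diabetes, 67.5 and 154 CPM in garlic and 84.0, 98.6 and 118 CPM in control (log2 change -1.82 ± 0.55, adjusted p = 0.271). In both the garlic libraries lay below all diabetes libraries, with garlic replicate 1 the lower. With the covariate the changes were 0.03 for Pomc and 0.28 for Cartpt. Pomc is also made by the pituitary, and its highest library, diabetes replicate 4, held 732 CPM of growth hormone (Gh), which was at 0 in the other 3 diabetes libraries and at 1.82 and 1.05 CPM in garlic. The 13 pituitary markers summed to 581, 765, 701 and 1719.6 CPM in diabetes and 499.9 and 644 CPM in garlic. These sums include Chga, described below among the neuroendocrine genes, so they are not a measure of pituitary tissue alone. Without diabetes replicate 4 the Pomc change was -2.15 (adjusted p = 0.53). It was -2.16 without garlic replicate 1 and -5.68 without garlic replicate 2. With all libraries limma-voom called both Pomc (adjusted p = 0.0161) and Cartpt (adjusted p = 0.0121), whereas DESeq2 called neither. The part of pituitary tissue in these values was not tested. Because the samples are bulk tissue, fewer cells of a type and less RNA per cell cannot be told apart, here and below.

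The feeding-promoting peptides showed no such separation. Npy stood at 11.9, 24.7, 27.4 and 46.0 CPM in diabetes and 17.3 and 20.3 CPM in garlic (log2 change -0.55 ± 0.69, adjusted p = 0.971), and the groups overlapped. Agrp, made by the same arcuate neurons, had no count in any diabetes library and 17 and 0 counts in garlic replicates 1 and 2, beside 8, 37 and 7 in control. This marker of arcuate hunger neurons was thus at 0 or at low counts in each of these libraries. In the lateral hypothalamus, Hcrt, which encodes the wake-promoting orexins, was at 74.1, 26.0, 107 and 26.4 CPM in diabetes and 34.6 and 59.8 CPM in garlic (log2 change -0.30 ± 0.94, adjusted p = 1). Pmch, which encodes melanin-concentrating hormone, was at 670.1, 346, 665 and 295 CPM in diabetes and 313 and 337 CPM in garlic (log2 change -0.61 ± 1.01, adjusted p = 1). Both genes overlapped between the groups. Avp, the precursor of vasopressin, which saves water, stood at 705, 1519.8, 725 and 1846 CPM in diabetes and 149 and 816 CPM in garlic (log2 change -1.31 ± 1.12, adjusted p = 0.85), with garlic replicate 1 the only library outside the diabetes range. Oxt, the precursor of oxytocin, stood at 219, 822, 285 and 939 CPM in diabetes and 249 and 509.5 CPM in garlic (log2 change -0.58 ± 1.00, adjusted p = 1), inside the diabetes range. The directions of Oxt, Hcrt, Pmch and Avp turned with the covariate for detected genes. Its slope also rests on curcumin replicate 2, which had 29126 genes at the lowest depth and 415 CPM of hypothalamus markers. The part of that library in these values was not tested.

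Of 22 other neuroendocrine genes, 4 were lower and 0 higher at an unadjusted p under 0.05, against 4.03% and 6.9% of all genes. The median was -0.36, or -0.68 without garlic replicate 2. Pcsk1n, the granin-like inhibitor of a prohormone convertase, stood at 4244, 2439, 8953 and 3793 CPM in diabetes and 1313 and 1504 CPM in garlic (log2 change -1.79 ± 0.48, adjusted p = 0.218). Chga, the secretory granule protein chromogranin A, was at 345, 428, 441 and 609 CPM in diabetes and 250.0 and 328 CPM in garlic (log2 change -0.66 ± 0.31, adjusted p = 0.455). Both had the garlic libraries below the diabetes range. Diabetes replicate 3 was the highest library for Pcsk1n, and without it the change was -1.31.

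Genes of insulin and leptin signalling had a median above that of all genes. Of 36 tested, 4 were higher and 0 lower at an unadjusted p under 0.05, against 6.9% and 4.03% of all genes. The list median was 0.21. The median was -0.06 after the correction for transcript length, -0.02 without garlic replicate 1 and 0.43 without garlic replicate 2. Insr, the insulin receptor, stood at 37.8, 42.4, 29.3 and 29.2 CPM in diabetes, 68.1 and 56.6 CPM in garlic and 60.5, 45.7 and 47.6 CPM in control (log2 change 0.84 ± 0.30, adjusted p = 0.361 against diabetes), with no overlap between garlic and diabetes. Lepr, the leptin receptor, stood at 2.05, 2.93, 2.78 and 3.93 CPM in diabetes and 3.68 and 2.47 CPM in garlic (log2 change 0.07 ± 0.84, adjusted p = 1). It overlapped between the groups, and its direction turned in 3 alternative analyses.

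Medians for receptors and channels of neurons were above that of all genes. Of 35 subunits of glutamate and GABA receptors, which carry excitation and inhibition, 8 were higher, against 6.9% of all genes, and 0 lower at an unadjusted p under 0.05, 13 had both garlic libraries above all diabetes libraries, against 13.2% of all genes, and the median was 0.42. The median was 0.12 without garlic replicate 1 and 0.59 without garlic replicate 2. Gria1, an AMPA receptor subunit, stood at 339, 340.2, 307 and 309 CPM in diabetes and 460.0 and 406 CPM in garlic (log2 change 0.42 ± 0.30, adjusted p = 0.749), and its change was -0.04 after the length correction, above the corrected median of all genes, -0.13. Gria2, the subunit that limits calcium entry, stood at 206, 171, 186 and 141 CPM in diabetes and 451 and 242 CPM in garlic (log2 change 0.98 ± 0.25, adjusted p = 0.206). It was chosen after its values were seen, as were Scn1a and Gad2 below. Gabbr1, a subunit of the metabotropic GABA receptor, overlapped, at 735, 655, 658 and 618 CPM in diabetes and 842 and 722 CPM in garlic. Of 31 potassium, sodium and calcium channel genes, 5 were higher and 0 lower, with a median of 0.43. Scn1a, a sodium channel of inhibitory neurons, was at 74.8, 38.8, 48.2 and 50.1 CPM in diabetes and 142 and 84.2 CPM in garlic (log2 change 1.09 ± 0.32, adjusted p = 0.266). Kcnj10, a glial potassium channel, overlapped between the groups, at 288, 189, 208 and 243 CPM in diabetes and 342 and 283 CPM in garlic (log2 change 0.43 ± 0.38, adjusted p = 0.864), and its change was -0.03 after the length correction, also above that median.

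Synaptic genes and transmitter enzymes completed the neuronal lists. Of 29 synaptic and vesicle genes, 5 were higher and 0 lower at an unadjusted p under 0.05, against 6.9% and 4.03% of all genes. The median was 0.27, or -0.01 after the length correction, 0.08 without garlic replicate 1 and 0.48 without garlic replicate 2. Snap25, a fusion protein of synaptic vesicles, stood at 744, 806, 677 and 651 CPM in diabetes and 1003 and 1002 CPM in garlic (log2 change 0.48 ± 0.33, adjusted p = 0.728), above the diabetes range. The covariate for detected genes turned that change to -1.10. Gad2, an enzyme that makes GABA, was at 169.6, 219, 185 and 161 CPM in diabetes and 487 and 275 CPM in garlic (log2 change 1.05 ± 0.29, adjusted p = 0.22), with garlic replicate 1 the highest of the 6. Of 19 transmitter enzymes and transporters, 2 were higher and 1 lower, with a median of 0.29, or -0.03 with either garlic library left out.

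Markers of striatum, a neighbouring region whose neurons also use GABA, were high in 1 garlic library. Their summed level was 754, 608, 752 and 618 CPM in diabetes and 1021 and 546 CPM in garlic replicates 1 and 2. At an unadjusted p under 0.05, 6 of 14 were higher and 1 lower, against 6.9% and 4.03% of all genes. The 3 marker genes given next were chosen after their values were seen. Adora2a, an adenosine receptor of striatal neurons, stood at 0.742, 3.21, 0 and 2.84 CPM in diabetes and 23.1 and 1.84 CPM in garlic. Drd1, the D1 dopamine receptor, stood at 3.53, 4.39, 3.05 and 4.50 CPM in diabetes and 16.2 and 5.63 CPM in garlic. For both garlic replicate 1 was high, and garlic replicate 2 was inside or near the diabetes range. Drd2, the D2 receptor, was at 9.79, 11.9, 14.1 and 13.9 CPM in diabetes and 28.7 and 15.2 CPM in garlic. The median of the list was 0.82, and 0.01 without garlic replicate 1. Meis2, a transcription factor of striatal and other neurons chosen after its values were seen, was at 13.4, 10.9, 7.48 and 2.84 CPM in diabetes and 71.2 and 27.1 CPM in garlic (log2 change 2.50 ± 0.67, adjusted p = 0.218). It passed without curcumin replicate 2 (adjusted p = 0.0457). Its change was 1.62 without garlic replicate 1, 3.04 without garlic replicate 2 and -0.41 with the covariate for detected genes. The part of striatal tissue in the higher receptor, channel and Gad2 levels was not tested, and those medians without garlic replicate 1 are 0.12 for receptors and 0.17 for channels, and the Gad2 change 0.57. Markers of thalamus and habenula had a median of 0.41. At an unadjusted p under 0.05, 3 of 23 were higher and 1 lower, against 6.9% and 4.03% of all genes. Their scores, members' median log2 CPM centred on each gene's mean, were -0.52, -0.53, -0.36 and -0.33 in diabetes and 0.18 and -0.05 in garlic, so both garlic libraries scored higher, whereas their summed level was 1071, 877, 1172 and 1121 CPM in diabetes and 1085 and 1008 CPM in garlic, inside the diabetes range. Of 15 nuclear-retained and long noncoding RNAs, a group that can follow RNA quality, 14 had a change above 0, against 13731 of the 25562 genes tested. At an unadjusted p under 0.05, 1 was higher, against 6.9% of all genes, and the list median was 0.38. The part of both groups in the receptor and channel levels was not tested.

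Genes of the antioxidant and sulfur pathways linked to garlic compounds were examined next. NRF2 binds antioxidant response elements and induces enzymes of glutathione and heme metabolism. Its gene, Nfe2l2, stood at 16.5, 22.2, 18.5 and 21.8 CPM in diabetes and 16.6 and 15.7 CPM in garlic (log2 change -0.29 ± 0.32, adjusted p = 0.944). Hmox1, the heme oxygenase it induces, stood at 2.61, 2.42, 5.31 and 3.51 CPM in diabetes and 3.81 and 4.58 CPM in garlic (log2 change 0.28 ± 0.80, adjusted p = 1). The groups overlapped in both genes. Of 29 NRF2 and glutathione genes, 1 was higher and 6 lower at an unadjusted p under 0.05, against 6.9% and 4.03% of all genes. The median was -0.29, or -0.11 without garlic replicate 1. Gstm5, a glutathione transferase chosen after its values were seen, was at 231, 194, 269 and 210.4 CPM in diabetes and 91.7 and 113 CPM in garlic (log2 change -1.15 ± 0.32, adjusted p = 0.239). Gpx3, a secreted glutathione peroxidase, was at 334, 390.5, 504 and 477 CPM in diabetes and 156 and 305 CPM in garlic (log2 change -0.89 ± 0.51, adjusted p = 0.598). The garlic libraries lay below the diabetes range in both, and the Gpx3 change was 1.72 with the covariate for detected genes. Sqstm1, an autophagy adaptor and NRF2 target, was at 835, 688, 1101 and 832 CPM in diabetes and 538 and 649 CPM in garlic (log2 change -0.54 ± 0.25, adjusted p = 0.438). No member of the list was higher in garlic after adjustment, and DESeq2 called 3 lower and 0 higher.

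Hydrogen sulfide is made from cysteine and homocysteine and cleared in mitochondria. Of 15 genes of this metabolism, 0 were higher and 2 lower at an unadjusted p under 0.05, against 6.9% and 4.03% of all genes, and the median was -0.23. Cbs, which makes hydrogen sulfide in the brain, stood at 49.2, 44.3, 56.9 and 60.0 CPM in diabetes and 40.7 and 40.5 CPM in garlic (log2 change -0.37 ± 0.29, adjusted p = 0.809). Mpst, a further producer that acts on mercaptopyruvate, stood at 32.2, 23.4, 33.2 and 43.5 CPM in diabetes and 19.8 and 22.5 CPM in garlic (log2 change -0.65 ± 0.34, adjusted p = 0.533). In both the garlic libraries were below the lowest diabetes library. Tst, the sulfur transferase rhodanese, which was chosen after its values were seen, was at 68.9, 35.2, 78.8 and 84.5 CPM in diabetes and 22.7 and 33.0 CPM in garlic (log2 change -1.26 ± 0.50, adjusted p = 0.395). Mat2a, which makes the methyl donor S-adenosylmethionine, overlapped, at 146, 159, 219.7 and 193 CPM in diabetes and 221 and 214 CPM in garlic (log2 change 0.28 ± 0.24, adjusted p = 0.858). Of 17 irritant-sensing TRP channels and xenobiotic enzymes, 2 were higher and 1 lower, with a median of 0.29, which was 0.07 without garlic replicate 1 and 0.06 without garlic replicate 2 and -0.36 with the covariate for detected genes.

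Glial, vascular and immune genes did not share 1 direction. Astrocyte markers had a median of -0.40, or -0.13 without diabetes replicate 4 and -0.20 without garlic replicate 1. At an unadjusted p under 0.05, 2 of 16 were lower and 0 higher, against 4.03% and 6.9% of all genes. Gfap, the intermediate filament of reactive astrocytes, stood at 212, 250.2, 189.6 and 366 CPM in diabetes and 142 and 224 CPM in garlic (log2 change -0.48 ± 0.39, adjusted p = 0.835), overlapping. Apoe, the lipid carrier made largely by astrocytes, stood at 5511, 3882, 8081 and 5867 CPM in diabetes, 2095 and 2314 CPM in garlic and 2670.2, 2753 and 974 CPM in control (log2 change -1.40 ± 0.43, adjusted p = 0.28). Apoe is not among the 16 listed markers, and it was lower in both garlic libraries than in any diabetes library. Oligodendrocyte markers as a list had a median of 0.26, or -0.04 without garlic replicate 1 and 0.46 without garlic replicate 2. Flt1, a VEGF receptor of endothelium chosen after its values were seen, was at 13.3, 11.5, 5.31 and 23.9 CPM in diabetes and 69.2 and 29.0 CPM in garlic (log2 change 1.86 ± 0.47, adjusted p = 0.205). Its change was 1.08 without garlic replicate 1 and 2.35 without garlic replicate 2. Vessel markers as a list had a median of 0.28, with 3 of 19 higher and 1 lower. That median was -0.0006 without garlic replicate 1, 0.81 without garlic replicate 2 and 0.81 without diabetes replicate 4.

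Microglia markers were divided, with 2 of 16 higher and 3 lower at an unadjusted p under 0.05 and a median of 0.03, or -0.30 without garlic replicate 1 and 0.16 without diabetes replicate 4. C1qb, a complement subunit made by microglia, stood at 64.0, 40.9, 78.2 and 95.1 CPM in diabetes and 37.8 and 40.2 CPM in garlic (log2 change -0.83 ± 0.34, adjusted p = 0.4). Cx3cr1, the fractalkine receptor of microglia, chosen after its values were seen, stood at 17.2, 20.6, 11.0 and 31.8 CPM in diabetes and 44.0 and 32.6 CPM in garlic (log2 change 0.93 ± 0.34, adjusted p = 0.382). These markers of 1 cell type lay on opposite sides, each without overlap. H2-D1, an MHC class I heavy chain with close paralogs, was at 90.9, 88.2, 115 and 100.4 CPM in diabetes and 57.4 and 50.5 CPM in garlic (log2 change -0.87 ± 0.29, adjusted p = 0.333). Of 25 inflammatory and NF-kB genes, 5 were higher and 0 lower, against 6.9% and 4.03% of all genes. By direction alone, 13 had a change above 0 and 12 below. The smallest adjusted p of the list, 0.326, was also that of Nlrp3, which had no count in any diabetes library. The part of such genes in this count was not tested. The list median was 0.08, or 0.93 without diabetes replicate 4 and -0.82 with the covariate for detected genes. Chuk, a kinase that activates NF-kB, was at 32.2, 32.8, 25.2 and 39.5 CPM in diabetes and 56.2 and 50.3 CPM in garlic (log2 change 0.71 ± 0.26, adjusted p = 0.376). In a separate list of 20 apoptosis genes, 1 was higher and 0 lower, with a median of -0.07. Xiap, an inhibitor of caspases and not a member of the inflammatory list, was at 58.3, 50.1, 60.7 and 52.7 CPM in diabetes and 112 and 76.9 CPM in garlic (log2 change 0.77 ± 0.23, adjusted p = 0.277). Chuk and Xiap had the garlic libraries above the diabetes range.

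Markers of blood cells were examined as well. Their summed level was 343, 532, 479 and 1839 CPM in diabetes, 179 and 237 CPM in garlic and 195, 165 and 257 CPM in control. At an unadjusted p under 0.05, 4 of 11 tested were lower and 1 higher, against 4.03% and 6.9% of all genes. Hbb-bs, a beta globin of red cells, stood at 82.1, 127, 136 and 528 CPM in diabetes and 26.4 and 44.4 CPM in garlic (log2 change -2.63 ± 0.81, adjusted p = 0.282). Hba-a2, an alpha globin with a near-identical copy, stood at 77.0, 148, 91.9 and 503 CPM in diabetes and 36.0 and 45.4 CPM in garlic (log2 change -2.33 ± 0.70, adjusted p = 0.269). Diabetes replicate 4 was far above the others, and the garlic libraries were below all 4. Without diabetes replicate 4 the changes were -1.70 and -1.38. Meningeal markers summed to 40.4, 165, 40.7 and 308 CPM in diabetes and 49.4 and 52.4 CPM in garlic, so that 2 diabetes libraries were high and 2 lay below garlic. The part of blood and meninges in other results was not tested.

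Some genes read in garlic had no count in diabetes. With 0 counts in all 4 diabetes libraries and at least 10 in both garlic libraries, 166 genes met this description, 47 of them protein-coding. The reverse, met by 0 genes, asks for 0 in 2 libraries and at least 10 in 4, so the counts are not directly comparable. Of the 166, 104 had counts in all control libraries and 49 in all curcumin libraries. At equal depth fewer genes were expected in each diabetes library than in any garlic or control library, and the part of library complexity in this count was not tested. The genes named here were chosen after their values were seen. The rule itself sets their diabetes counts at 0, so their fold bounds and p-values are no separate support for a change. Nlrp3, the sensor of an inflammasome, had 27 and 32 counts in garlic and 19, 0 and 18 in control, at least 36.4-fold higher in garlic than in diabetes against a floor of 3 counts over the diabetes group (adjusted p = 0.326). Nos2, the inducible nitric oxide synthase, had 16 and 11 counts in garlic and 8, 14 and 19 in control (at least 16.7-fold). Isg15, an interferon-induced ubiquitin-like protein, had 10 and 18 counts in garlic and 13, 20 and 10 in control (at least 17.3-fold). These immune genes were low wherever they were read, and the garlic counts of Nos2 and Isg15 were inside the control range. C5ar1, a complement receptor, had 14 and 15 counts in garlic and 15, 9 and 13 in control (at least 17.9-fold). Tal1, a transcription factor of blood and midbrain neurons, had 40 and 31 counts in garlic and 53, 20 and 31 in control (at least 43.8-fold, adjusted p = 0.154). The bounds cover counting error only.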

How the data were processed

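RNA was sequenced from hypothalamus as stranded poly-A libraries, per the labels' protocols. The authors deposited 1 table of unnormalized counts for each gene. Per the submitters' processing notes FastQC, featureCounts and GRCm39 were used. Aligner, annotation release and strand setting were not given in the sources used here, so overlapping, antisense and duplicated genes are uncertain. GENCODE M21 and RefSeq synonyms gave symbols to 51535 IDs (65.8%, holding 97.8% of counts) and the median transcript length per gene. Builds differ, so no coordinates are given. Groups come from the sample titles.

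Genes were filtered by filterByExpr and scaled by TMM, and all 12 libraries were fitted in edgeR 4.0.16 (R 4.3.3) with glmQLFit and glmQLFTest. P-values were adjusted by Benjamini-Hochberg over 25562 genes, with a threshold of 0.05. A standard error is the absolute log2 change divided by the root of F. Levels are CPM on TMM-scaled totals, and scores use a prior count of 2. DESeq2 1.42.0, limma 3.58.1, other filters, scalings, covariates and leaving out each library were alternatives. The same fit was also run on simulated counts with known changes, and the result is not reported here. No pair of the 6 libraries looked like 1 library deposited as 2 (chi-square at least 50.4 per degree of freedom).

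Named genes were, for either direction, the 10 smallest p-values among genes with at least 1 CPM, a proper symbol and no overlap (since fewer than 10 passed), up to 4 passing and 2 abundant members per list, and 17 fixed genes; exceptions are named as such, and some genes this rule names are not reported here. The members and the 51 lists (1145 of 1148 entries matched) were chosen with earlier results of these data known. No set test was run.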

Additional observations from a re-analysis of the deposited data

Results flagged for a closer look

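In the 4 diabetes libraries, Dixon's test at the 95% level singled out a library in 7 of 206 sets of values (99 genes, 51 lists with a score and a summed level each, and 5 library properties). Chance gives about 1 in 20 sets, and the sets are not independent. All 7 were the highest value of diabetes replicate 4. Hbb-bs stood at 528 CPM and Hba-a2 at 503 CPM there, and the blood markers summed to 1839 CPM. Gh stood at 732 CPM and Cga, the shared subunit of pituitary glycoprotein hormones, at 19.4 CPM, and the pituitary markers summed to 1719.6 CPM. The microglia markers summed to 643 CPM. Garlic has 2 libraries, too few for the test.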

How the results depend on the processing

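For garlic against diabetes edgeR called 0 genes, and 0 again with RLE scaling, a stricter filter, only the groups compared or the covariate for detected genes. DESeq2 called 432 and limma-voom 429. EdgeR called 356 without a low-count filter, 120 with the length correction, 4 with robust spread and 1 with the replicate block. Leaving out 1 library of the 2 groups gave 0 to 52 calls (2 without garlic replicate 1, 52 without garlic replicate 2, 1 without diabetes replicate 4). A lone garlic library is assumed to vary like the other groups. Without curcumin replicate 2 there were 71 calls, and 1 with diabetes replicate 4 also out; both alternatives were added after the data were seen. For garlic against control the count was 0 except 3 without a filter. The cause of these differences was not tested. The median over all genes was 0.33 in limma-voom, 0.35 without a filter, 0.15 with the block and -0.13 with the covariate or the length correction, so directions under these are relative to it.

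Whether the replicate numbers pair the libraries could not be decided. Across genes, deviations of garlic and diabetes libraries of the same number correlated at 0.12 for number 1 and -0.03 for number 2. With 2 garlic libraries their deviations are exact opposites, so these values are not independent. With the replicate block Lepr (-0.13) turned, and Npy (0.15), Oxt (0.0083) and Hcrt (0.10) went above 0 but stayed below the median of all genes. With the covariate for detected genes, these turned: Pomc 0.028, Cartpt 0.28, Avp 1.83, Oxt 2.47, Hcrt 6.27, Pmch 3.81, Gpx3 1.72, Hmox1 -0.77, Snap25 -1.10, Mat2a -0.34, Adora2a -1.15, Drd2 -1.04, mt-Nd4 -0.17 and Meis2 -0.41. The length correction took Gria1 (-0.037) and Kcnj10 (-0.034) below 0 but not below the median of all genes. Leaving out 1 library turned Lepr (without diabetes replicate 1 or garlic replicate 1, range -0.25 to 0.33) and Hcrt (without diabetes replicate 3 or garlic replicate 1, range -0.75 to 0.16). Of 97 genes, 79 kept the sign of their change in every alternative. Depth limits low genes: a count of 0 in the lowest library still allows 3 counts.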
